A study of Mus musculus with 20 samples.

Results

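Insulin-like growth factors (IGFs), their receptors and their binding proteins were followed in mouse aortic tissue. The 10 members were taken by gene symbol, as the ligand genes Igf1 and Igf2, the receptor genes Igf1r and Igf2r, and the binding protein genes Igfbp2, Igfbp3, Igfbp4, Igfbp5, Igfbp6 and Igfbp7. Of these 10, 3 were listed in at least 1 of the authors' 3 tables of called genes, which together list 3696 genes. The listed members were Igfbp2, Igfbp7 and Igfbp4.

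The study measured RNA in 20 libraries of aorta from female mice, 5 for each of 4 groups, and each library pooled tissue of 2 mice. Wild-type (WT) mice were 12 to 15 weeks old in the WT young group and 72 to 78 weeks old in the WT aged group. The KO young and KO aged groups had the same age ranges and are labelled as Knockdown-KO, which the series text gives as Nckx4-/-, for Slc24a4, a gene encoding a sodium/potassium/calcium exchanger. The strain, and whether the loss of Slc24a4 was limited to some cells, are not stated in the labels. No value per library entered, so each value is a mean, a log2 fold change or an SE of the authors, depth is unknown, and no library could be looked at alone. In pooled bulk tissue, fewer cells of a type and less RNA per cell cannot be told apart.

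IGF1 and IGF2 act on the tyrosine kinase receptor IGF1R, which signals to growth and survival in vascular smooth muscle. IGF2R, the mannose 6-phosphate receptor, takes up IGF2 and leads it to lysosomes. The binding proteins hold IGFs outside the cell, prolong or block their action, and release them when proteases such as PAPP-A cut them; some also act on integrins or other surface proteins without IGF.

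The sequences before the start sites of the 3 listed members are shown because these genes carry the calls. Each is the 250 bases upstream of the first start site that RefSeq gives on build GRCm38.p6, 5′ to 3′ on the strand of the gene. Capitals mark GC boxes (GGGCGG on either strand) and TATA boxes (TATAAA on either strand); these motifs do not overlap each other in the sequences shown. The windows lie at chr1:72824230-72824479 on the plus strand for Igfbp2, at chr5:77408046-77408295 on the minus strand for Igfbp7 and at chr11:99040994-99041243 on the plus strand for Igfbp4.
Igfbp2: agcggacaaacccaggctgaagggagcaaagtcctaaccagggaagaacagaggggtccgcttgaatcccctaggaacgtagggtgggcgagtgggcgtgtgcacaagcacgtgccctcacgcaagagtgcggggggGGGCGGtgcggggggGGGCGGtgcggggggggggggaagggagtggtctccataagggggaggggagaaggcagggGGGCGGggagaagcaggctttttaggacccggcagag
Igfbp7: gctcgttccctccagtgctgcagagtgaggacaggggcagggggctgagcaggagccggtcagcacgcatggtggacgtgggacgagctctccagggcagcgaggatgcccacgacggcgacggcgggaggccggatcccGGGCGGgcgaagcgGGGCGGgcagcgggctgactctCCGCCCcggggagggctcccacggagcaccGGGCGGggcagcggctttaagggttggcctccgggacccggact
Igfbp4: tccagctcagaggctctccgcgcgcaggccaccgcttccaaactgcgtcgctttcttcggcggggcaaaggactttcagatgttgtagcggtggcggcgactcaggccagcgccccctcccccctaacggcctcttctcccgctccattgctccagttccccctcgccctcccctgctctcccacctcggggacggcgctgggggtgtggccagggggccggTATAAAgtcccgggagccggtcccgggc

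The Igfbp2 window held 3 GC boxes and the Igfbp7 window 4, with no TATA box in either. The Igfbp4 window held a TATA box and 0 GC boxes. Igfbp2 has another start site in RefSeq, whose window held none of the motifs searched. Among all 10 members, which have 14 start sites in RefSeq, 6 windows held a GC box and 2 a TATA box, and 0 held the FOXO motif GTAAACA on either strand. Of all 32851 upstream windows of that length, 32.7% held a GC box, 12.4% a TATA box and 3.17% the FOXO motif. The matches describe the letters only.

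WT aged aorta was first compared with WT young aorta, for the effect of age. Among the members, Igfbp2 rose steeply in WT aged aorta and Igfbp7 fell slightly. Igf1, Igf2, Igf1r, Igf2r, Igfbp3, Igfbp4, Igfbp5 and Igfbp6 were not listed, so none had an adjusted p under 0.05 there. The 2 of 10 members called stood beside 12.0% of all 14374 tested genes called in the authors' deposited table. Both are genes of binding proteins, and neither ligand nor receptor was called. Binding protein genes make up most of the 10 members, so 2 calls do not set them apart from the ligands and receptors.

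Igfbp2 encodes a binding protein that carries an RGD sequence and binds integrins as well as IGFs. Its mean normalized count in the authors' deposited table was 1081. With the deposited log2 fold change, which is shrunken towards 0, the implied group means were about 231 (WT young) and 1930 (WT aged). An approximate unshrunken value, the z of its p times its SE, gives about 160 (WT young) and 2001 (WT aged). In the authors' deposited table the log2 fold change was 3.06, with an SE of 0.51 and an adjusted p of 1.82e-10, or 8.34-fold. The 95% interval from that SE runs from 4.16-fold to 16.7-fold. This was the third largest increase among the 756 genes called higher in WT aged aorta.

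The size of the Igfbp2 increase was less precisely measured than that of most called genes at its level. Genes with small changes are called only at a small SE, so this comparison partly follows from the calling. The SEs of uncalled genes at this level are not known. In the authors' deposited table, 521 other called genes had a mean within 2 times that of Igfbp2, from 540 to 2161. Their median SE was 0.12, and 3 of them had a larger SE than the 0.51 of Igfbp2 in the authors' deposited table. None of the 521 had a larger absolute log2 fold change; their median was 0.35. Ordered by adjusted p, Igfbp2 stood at rank 92 of 1728 called genes. Which of the pooled libraries were high or low in Igfbp2 was not analysed here.

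Igfbp7 encodes a secreted, low-affinity IGF binding protein found in vascular basement membrane. Its mean normalized count in the authors' deposited table was 34636. The group means implied with the deposited, shrunken fold change were about 37272 (WT young) and 32000 (WT aged). The log2 fold change was −0.22 (SE 0.07, adjusted p = 0.00869) in the authors' deposited table, a change of −14.1%. Its 95% interval on the log2 scale was −0.36 to −0.08. Of the 1728 called genes, 9.03% had a smaller absolute log2 fold change than Igfbp7, which had the rank of 28 by mean normalized count, a count not divided by gene length.

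**Figure D1:**
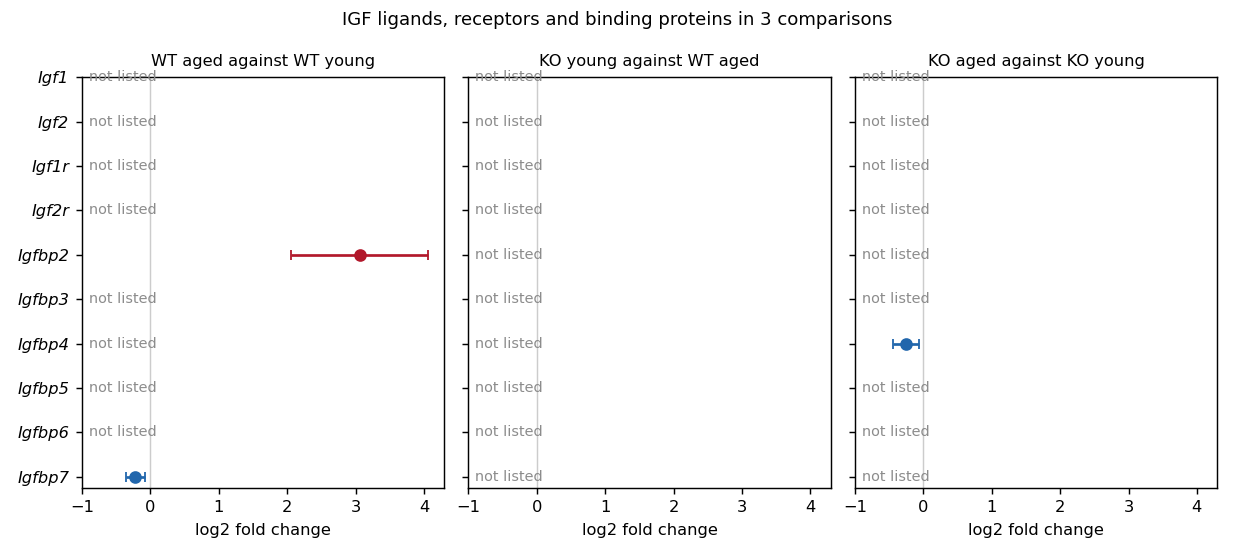
Log2 fold change (x axis) of each of the 10 members (y axis) in 3 comparisons, with 95% intervals from the deposited SE; red points are higher and blue points lower in the group named first. Only Igfbp2 at 3.06, Igfbp7 at −0.22 and Igfbp4 at −0.25 have a value, and a member with no point was not listed in that table.

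KO young aorta was compared with WT aged aorta, a contrast in which genotype and age differ together. None of the 10 members was listed, at an adjusted p under 0.05 in the test of the authors, whose notes name DESeq2. Of all 14661 tested genes 7.78% were called in the authors' deposited table. How many members had an unadjusted p under 0.05 was not analysed here, since the table ends at its last called gene. Igfbp2 was therefore called between WT aged and WT young and was not listed between WT aged and KO young. WT aged is shared by both comparisons.

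Not being listed does not show equal levels. The last gene called in this table had an unadjusted p of 0.00384. With an SE equal to its 0.51 in WT ageing, Igfbp2 would have needed a log2 fold change of 1.48 to reach that p. In WT ageing Igfbp2 was at 3.64 on the same approximate unshrunken scale. With their own SEs from the tables that list them, Igfbp7 would have needed 0.21, against 0.24 in WT ageing, and Igfbp4 would have needed 0.28. The SEs of the members in this table are not known, so these sizes are rough.

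KO aged aorta was compared with KO young aorta, for the effect of age under the KO label. Igfbp4 was the 1 member called, and it fell slightly in KO aged aorta. Neither Igfbp2 nor Igfbp7 was listed. The 1 of 10 members called stood beside 14.4% of all 14477 tested genes called in the authors' deposited table.

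Igfbp4 encodes a binding protein that mainly blocks IGF action and is the classic substrate of PAPP-A. Its mean normalized count in the authors' deposited table was 11761. The group means implied with the deposited, shrunken fold change were about 12778 (KO young) and 10745 (KO aged). The log2 fold change was −0.25 (SE 0.10, adjusted p = 0.0172) in the authors' deposited table, a change of −15.9%. Its 95% interval on the log2 scale was −0.44 to −0.06. It stood at rank 1464 of 2083 called genes by adjusted p, and at a threshold of 0.01 it would not be called.

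Igfbp4 too had a larger SE than most called genes at its level, with the same limit that uncalled genes are not seen. The authors' deposited table held 233 other called genes with a mean from 5881 to 23522, whose median SE was 0.07, and 16 of them had a larger SE than Igfbp4. Their median absolute log2 fold change was 0.23. The decrease of Igfbp4 was thus near the middle of the sizes called at that level, with 102 of the 233 genes showing a larger one.

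**Figure D2:**
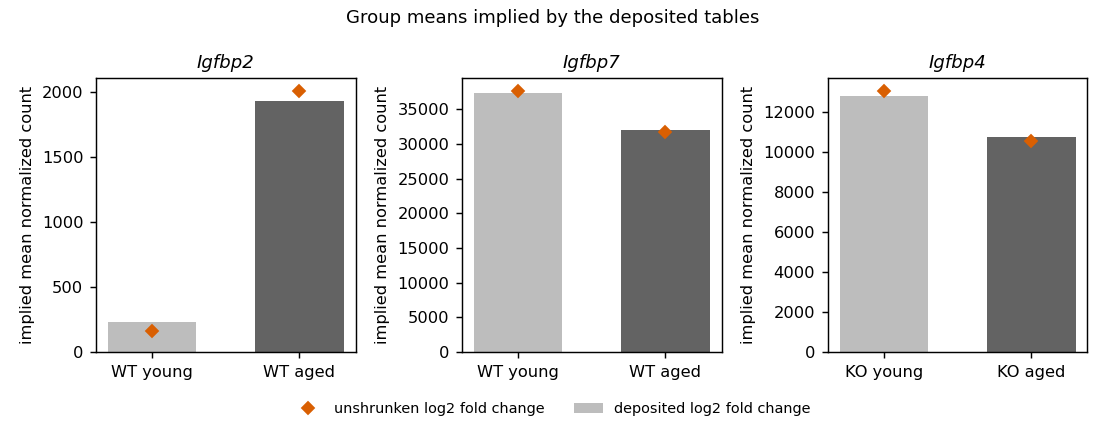
Mean normalized count (y axis, from 0, a separate scale for each gene) implied for each group (x axis) by the deposited pooled mean and fold change, for Igfbp2, Igfbp7 and Igfbp4. Bars use the deposited, shrunken log2 fold change and diamonds the approximate unshrunken one. By the bars, Igfbp2 goes from about 231 to 1930, while Igfbp7 and Igfbp4 change by −14.1% and −15.9%. No error per library is known.

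**Figure D3:**
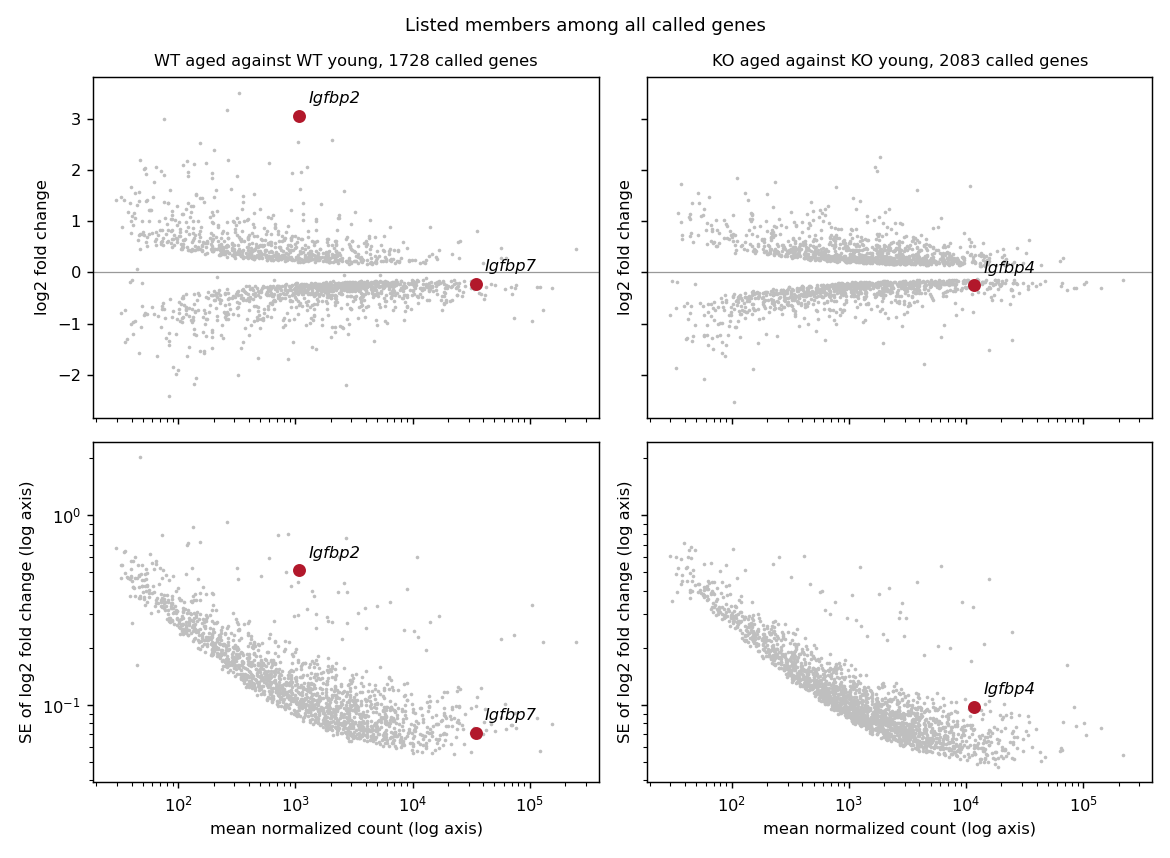
Log2 fold change (upper row) and its SE (lower row, log axis) against mean normalized count (log axis) for all called genes (grey) and the listed members (red) in WT ageing (left) and KO ageing (right). Igfbp2 has the largest fold change among the called genes within 2 times its mean, 3 of which have a larger SE, and Igfbp7 and Igfbp4 lie among the called genes of like mean.

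Whether the members aged differently in WT and KO aorta was not tested, since 0 of them were called in both ageing comparisons. In KO ageing Igfbp2 would have needed a log2 fold change of 1.38 at its SE of WT ageing, and Igfbp7 0.19. In WT ageing Igfbp4 would have needed 0.27 at its SE of KO ageing, against 0.31 in KO ageing on the same approximate unshrunken scale. Likewise, 0 members were listed in more than 1 table, so no likeness of pattern with other genes was computed.

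The ligand and receptor genes gave no call in any comparison. Of all tested genes, 12.0%, 7.78% and 14.4% were called, so a lack of calls among so few genes does not set them apart. Igf1 and Igf2, Igf1r and Igf2r, and the binding protein genes Igfbp3, the main carrier of circulating IGF, Igfbp5, which binds to extracellular matrix, and Igfbp6, which prefers IGF2, make up the 7 members listed nowhere. Igfbp5 is the next protein-coding gene to Igfbp2 on chromosome 1 in RefSeq (GRCm38.p6), and it was not listed where Igfbp2 rose. H19, an imprinted noncoding RNA gene near Igf2 on mouse chromosome 7, was higher in KO aged aorta at a log2 fold change of 1.08 (SE 0.66, adjusted p = 0.0216) and a mean normalized count of 43.1 in the authors' deposited table, while Igf2 was not listed. Of the 18 other protein-coding genes next to a member, 4 were listed in some table. Over the series 3696 genes were listed in some table, with 14374 to 14661 genes tested per comparison. The 4 were named after their values were seen, and a link of their changes to those of the members was not tested. Next to Igfbp4, Top2a, a topoisomerase gene of dividing cells, was at −1.26 (SE 0.25) in KO ageing in the authors' deposited table, and Tns4 was at −0.84 (SE 0.42) there and at 1.01 (SE 0.48) in KO young against WT aged. Polr2b, next to Igfbp7, was at −0.23 (SE 0.08) in WT ageing, and Synm, next to Igf1r, was at −0.23 (SE 0.07) in KO ageing in the authors' deposited tables.

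The members act together with proteases, surface partners and intracellular transducers. From 10 lists, 137 genes were read beside them. The lists also hold FOXO targets, IGF2 mRNA binding protein genes and imprinted genes, and were chosen with earlier results of these data known. WT ageing called 34 of them (24.8%, 14 higher and 20 lower), beside 12.0% of all tested genes. KO young against WT aged called 22 (16.1%, 10 higher and 12 lower), beside 7.78%. KO ageing called 31 (22.6%, 13 higher and 18 lower), beside 14.4%. Their median log2 fold changes among called genes were −0.22, −0.22 and −0.24, beside −0.21, 0.20 and 0.18 over all called genes. Called values leave a gap around 0, so the sign of such a median follows the split into higher and lower genes. All called genes split into 756 higher and 972 lower, 598 and 543, and 1116 and 967.

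Genes that control the release of IGFs from IGFBP4 and other members gave calls in all 3 comparisons. These called 12.0%, 7.78% and 14.4% of all tested genes. Of 15 protease and inhibitor genes, 5 were higher and 1 lower in WT ageing, where Igfbp2 and Igfbp7 were called. Pappa2, a protease that cuts IGFBP3 and IGFBP5, was at 1.01 (SE 0.27, adjusted p = 9.83e-05) in the authors' deposited table. Pcsk5, with the lowest adjusted p of the list there, was at 0.42 (SE 0.10), and Htra1, the 1 lower gene, at −0.36 (SE 0.09). In KO ageing, where Igfbp4 was called, 3 were higher and 4 lower. Adamts1, with the lowest adjusted p of the list in KO ageing, was at 0.37 (SE 0.09). Pappa, whose protein cuts IGFBP4, was at −0.43 (SE 0.17, adjusted p = 0.0118) there in the authors' deposited table. A link of these changes to those of the members was not tested.

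Stc2, a secreted inhibitor of PAPP-A, was called in all 3 tables. It was at 0.74 (SE 0.27) in WT ageing and 0.91 (SE 0.25) in KO ageing in the authors' deposited tables, and at −1.32 (SE 0.24) in KO young against WT aged. The ageing effects differed by 0.17 on the log2 scale (SE 0.37), which did not pass the test of the difference (two-sided Wald test, adjusted p = 0.808 over the 438 genes in both ageing tables). KO young against WT aged, which shares a group with each ageing comparison, had 2 protease and inhibitor genes higher and 2 lower, with Pappa at 0.74 in the authors' deposited table.

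Surface proteins that bind the members were called for 4 of 12 genes in WT ageing, 1 higher and 3 lower. Ptprz1, a receptor phosphatase gene whose protein is known to bind IGFBP2, was at 0.43 (SE 0.29, adjusted p = 0.0429) in the authors' deposited table. The integrin subunit genes Itgb3, Itgav and Itga5 were at −0.41, −0.26 and −0.22 in the authors' deposited table. In KO ageing 0 were higher and 3 lower, among them Itgb3 at −0.36, Cd93, which encodes an endothelial binding partner of IGFBP7, at −0.25, and Tmem219, which encodes a proposed IGFBP3 receptor, at −0.24 in the authors' deposited table. KO young against WT aged gave 2 higher and 1 lower. Of all tested genes, 12.0% were called in WT ageing, 7.78% in KO young against WT aged and 14.4% in KO ageing.

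The CCN proteins and other secreted proteins with an IGFBP-like module were called for 4 of 9 genes in WT ageing, 2 higher and 2 lower. Of all tested genes, 12.0% were called there, 7.78% in KO young against WT aged and 14.4% in KO ageing. KO young against WT aged gave 2 higher and 2 lower, and KO ageing 1 higher and 5 lower, with Ccn1 at −1.32 (SE 0.24) in KO ageing in the authors' deposited table.

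**Figure D4:**
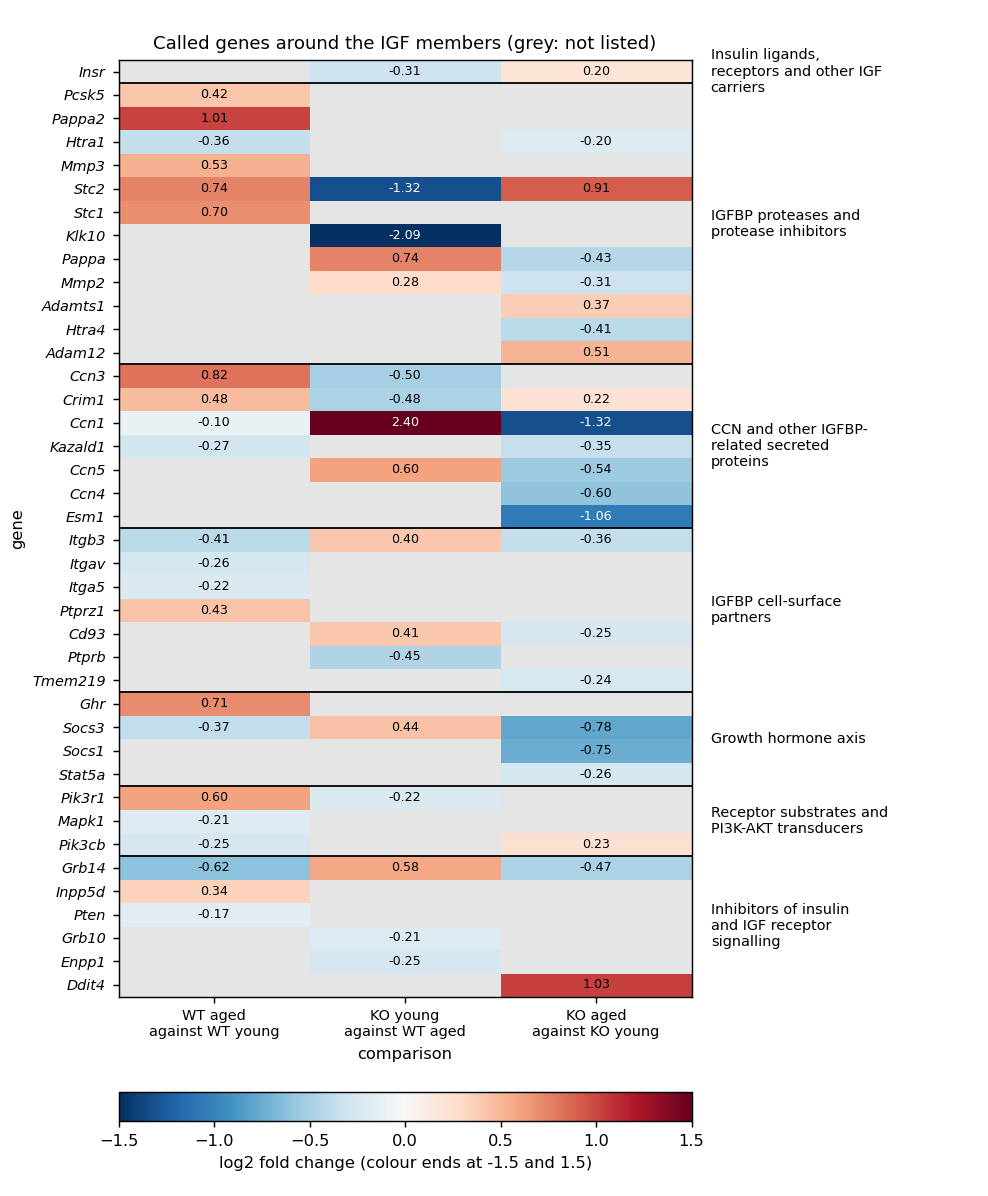
Log2 fold change (colour and printed value) of called genes (y axis), grouped by 7 of the lists, in the 3 comparisons (x axis); grey fields are genes not listed in that table. Stc2, Itgb3, Crim1, Ccn1, Socs3 and Grb14 have a value in all 3 comparisons, unlike any of the 10 members.

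Calls were also read for the insulin receptor and for transducers and inhibitors downstream of IGF1R. Insr, the insulin receptor gene, was at −0.31 (SE 0.08) in KO young against WT aged and at 0.20 (SE 0.07) in KO ageing in the authors' deposited tables, and was not listed in WT ageing. Of 25 substrate and PI3K-AKT genes, 3 were called in WT ageing, 1 in KO young against WT aged and 1 in KO ageing. These were 12%, 4% and 4% of the list, at or below the 12.0%, 7.78% and 14.4% of all tested genes. Pik3r1, the regulatory subunit gene of PI3K, was at 0.60 (SE 0.06) in WT ageing in the authors' deposited table. Of 17 inhibitor genes, 3, 3 and 2 were called (17.6%, 17.6% and 11.8%, beside the same shares of all tested genes). Grb14, whose adaptor protein blocks the insulin receptor, was at −0.62 in WT ageing and 0.58 in KO young against WT aged. In KO ageing Grb14 was at −0.47 in the authors' deposited tables.

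The growth hormone axis, which sets Igf1 in many tissues, had 2 of 9 genes called in WT ageing, 1 in KO young against WT aged and 3 in KO ageing. The growth hormone receptor gene Ghr was at 0.71 (SE 0.12) in WT ageing in the authors' deposited table, where Igf1 was not listed. FOXO factors and their targets, which AKT restrains, had 4, 4 and 6 of 18 genes called. Of all tested genes, 12.0%, 7.78% and 14.4% were called. The FOXO list split into 2 higher and 2 lower in WT ageing, 1 and 3 in KO young against WT aged, and 5 and 1 in KO ageing. Klf15 was at 0.55 in WT ageing, −1.11 in KO young against WT aged and 1.18 in KO ageing in the authors' deposited tables. The other way went Foxo6 at −1.21 and Cdkn1b at −0.35 in WT ageing, and Foxo1 at 0.21 in KO young against WT aged. In KO ageing it was Fbxo32, at −0.31 (SE 0.08). Of the mRNA binding protein genes named for Igf2, Igf2bp2 was at −1.45 (SE 0.27) and Igf2bp3 at 0.34 in WT ageing in the authors' deposited table, and neither was listed elsewhere. Of 22 imprinted growth genes, Igf2 and Igf2r among them, 6 were called in WT ageing and all 6 were lower, led by Meg3 at −0.96 (SE 0.08) in the authors' deposited table. In the other comparisons Igf2 and Igf2r stayed unlisted too, with 1 gene of the list higher and 1 lower in each.

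Markers of cell types in and around the aorta were read beside the called members. In WT ageing, 4 of 8 fibroblast markers were called, all 4 lower, led by Fap at −0.60 and Col15a1 at −0.39 in the authors' deposited table. There, 1 of 8 white adipocyte markers (Cidec, 0.45), 1 of 7 brown adipocyte markers (Prdm16, 0.18) and 1 of 7 smooth muscle markers (Des, 0.39) were called higher in the authors' deposited table, with 0 of 8 endothelial, 0 of 8 macrophage, 0 of 6 lymphocyte and 0 of 5 mesothelial markers called. Lower in WT aged aorta were 2 of 7 skeletal and heart muscle markers (Actc1 at −1.99 and Myh6 at −0.09), 1 of 5 chondrocyte markers (Sox9, −0.91) and 1 of 6 nerve markers (Ncam1, −0.39) in the authors' deposited table. In KO ageing, 4 of 7 brown adipocyte markers were called, 3 higher, with Ucp1 at 1.62 (SE 0.45) and a mean normalized count of 3818 in the authors' deposited table. Prdm16 went the other way there, at −0.33 (SE 0.08) and a mean normalized count of 8306. Of the other lists there, 2 of 8 endothelial, 1 of 8 fibroblast, 1 of 7 smooth muscle, 3 of 5 chondrocyte and 1 of 6 nerve markers were called, and 0 of 8 white adipocyte, 0 of 8 macrophage, 0 of 6 lymphocyte, 0 of 7 skeletal and heart muscle and 0 of 5 mesothelial markers. The smooth muscle genes Smtn and Lmod1 had mean normalized counts of 43164 and 24197 where they were listed in the authors' deposited tables, and Acta2 and Myh11 were not listed. Of all tested genes, 12.0% were called in WT ageing and 14.4% in KO ageing. The part of these markers in the changes of Igfbp2, Igfbp7 and Igfbp4 was not tested. Slc24a4 itself was listed in WT ageing alone, at −2.00 (SE 0.46) in the authors' deposited table, from which a WT aged mean of about 130 follows. It was not listed in KO young against WT aged, so a loss of its RNA in the libraries labelled KO is not seen there. If it were at 0 in KO young, its mean in that comparison would be about 64.9, and 35 genes with a mean of at most that were called in the authors' deposited table. These are called genes, so they do not show that such a loss would have been called, and every direction given for KO rests on the label.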

How the data were processed

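The 10 members and all gene lists were chosen with earlier results of these data known. Per the labels' protocols, libraries of pooled aortas were made with a stranded low-input kit. Tools named, per the submitters' processing notes and with no role or settings, were STAR (2.7.11b), Subread (2.0.8) with featureCounts, DESeq2 (1.42.1) and MultiQC (1.25.1), with the build GRCm39. The authors deposited, per the file headers, 5 values for each called gene of 3 comparisons: raw and adjusted p-value, log2 fold change with its log2 SE, and mean normalized count (a signal). No counts per library entered, so depth is unknown and no model was refitted. P-values concern the difference between 2 groups, set against the spread among the 5 pools of each group.

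Adjusted over raw p in row 1 gave the number of tested genes, and the last row's implied rank matched each table's length, so the tables hold every called gene. Signs were set so that groups shared between tables had equal means; this turned the values of KO young against WT aged. Fold change over SE had medians of 0.858, 0.841 and 0.865 times the z from p, which shows shrinkage towards 0. The approximate unshrunken value is that z times the SE. It is exact only if the deposited SE belongs to the unshrunken estimate, which is not known. Ageing effects were compared by a two-sided Wald test over all 438 genes in both ageing tables, with Benjamini-Hochberg adjustment. A trial on simulated data used unshrunken effects with a known SE and no selection of called genes. It therefore does not show how the test behaves on the deposited values. The Wald test covers genes called in both tables, takes the SEs deposited beside shrunken values as they stand, and joins separately normalized tables.

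Named genes are all members, Slc24a4 and, per list and table, genes from among the 4 with the lowest adjusted p. Fbxo32, Top2a, Tns4, Polr2b and Synm were named besides, after their values were seen. Alternatives were a threshold of 0.01, a mean of at least 100, a log2 change of 0.5 or more in size, and unshrunken values. All 10 members had a RefSeq upstream sequence. Computation used Python (3.11.15) with SciPy (1.17.1), pandas (2.3.3), NumPy (2.4.6) and, for plots, matplotlib (3.10.9).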

Additional observations from a re-analysis of the deposited data

Results flagged for a closer look

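Genes around the members whose ageing effect differed between genotypes are given here, each by the two-sided Wald test of the difference, adjusted over 438 genes. Of 12 pathway genes in both ageing tables, 4 passed, against 131 of all 438 genes. Meg3, an imprinted noncoding RNA gene, differed by 0.72 (KO minus WT, log2 scale, SE 0.12, adjusted p = 2.03e-07), falling less in KO. Klf15, a glucocorticoid- and FOXO-responsive factor gene, differed by 0.63 (SE 0.15, adjusted p = 0.000171), rising more in KO. Ccn1, a matricellular gene with an IGFBP-like module, differed by −1.22 (SE 0.31, adjusted p = 0.000655). Its deposited value in WT ageing, −0.10 (SE 0.20) in the authors' deposited table, is strongly shrunken. On the approximate unshrunken scale the difference was −0.84 (same Wald test, adjusted p = 0.0258). Pik3cb, a catalytic PI3K subunit gene, differed by 0.48 (SE 0.12, adjusted p = 0.000814), from −0.25 in WT ageing to 0.23 in KO ageing in the authors' deposited tables. Sums of 2 deposited changes that share a group give KO minus WT at equal age, with no SE and no test. In young aorta these were −0.52 for Meg3, −0.56 for Klf15 and 2.30 for Ccn1. In aged aorta they were 0.20, 0.07 and 1.08, so the sums were larger in size in the young groups. The young sum of Ccn1 rests on its strongly shrunken value in WT ageing. None of the 10 members could be tested for a difference of ageing effects.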

How the results depend on the processing

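Of 9 alternatives to the counts of called members, 6 left the count as it was. Asking for a log2 change of 0.5 or more in size left 1 member, Igfbp2, in WT ageing and 0 in KO ageing, and an adjusted p under 0.01 left 0 in KO ageing, since that of Igfbp4 was 0.0172. Approximate unshrunken log2 fold changes were 3.64 for Igfbp2, −0.24 for Igfbp7 and −0.31 for Igfbp4. Their direction is that of the deposited values by construction. The tests of a difference between genotypes kept their direction and side of the threshold with unshrunken values and with SEs implied by p for the 15 listed genes in both ageing tables. No paired analysis was possible because values per library were not analysed here; leaving out replicates was not run for the same reason. The SE of 0.51 limits the fold change of Igfbp2, and depth is unknown.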
